A study of Rattus norvegicus and Mus musculus with 34 samples.

Results

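The data concern 10 genes of the periodontal ligament and of fibroblasts, Postn, Scx, Tnmd, Aspn, Fmod, Tnc, Acta2, Fap, Pdgfra and Plod2, in tissue that filled a bone defect beside the molar teeth of the rat. They were taken by name as a list, and all 10 were found among the 20022 genes measured. Every rat was a wild-type (WT) young male Sprague-Dawley rat that received the same periodontal bone defect on the outer side of the mandible. In the sensory nerve+ groups the inferior alveolar nerve, which carries sensation from the lower jaw, was left intact, and in the sensory nerve- groups a piece of that nerve was cut out at the time of the defect. The healing tissue was collected at day 3, day 7 or day 14 and its RNA was sequenced from 23 rats, 3 in the sensory nerve+ group of day 3 and 4 in each of the other 5 groups. The surgery removes the nerve at 1 place and is not specific to a type of sensory fibre, and the labels describe the tissue as mixed cells, so each value is an average over all cells that the sample held.

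The periodontal ligament is the fibrous tissue that ties the tooth root to the bone of its socket, and its fibroblasts make and continually replace bundles of collagen. When the tissue is wounded, fibroblasts enter the defect, divide, lay down a provisional matrix and later a collagen matrix that is crosslinked and partly replaced by bone. Periostin (Postn) and tenascin C (Tnc) are matricellular proteins of wounded and loaded matrix. Scleraxis (Scx) is a transcription factor of the tendon and ligament lineage, and tenomodulin (Tnmd) is a membrane protein of mature tendon and ligament cells. Asporin (Aspn) and fibromodulin (Fmod) are small proteoglycans that bind collagen fibrils. Plod2 is a lysyl hydroxylase that prepares collagen for crosslinking, Acta2 is the smooth muscle actin of myofibroblasts and vessel walls, Fap is a surface protease of activated fibroblasts and Pdgfra is a receptor for platelet-derived growth factor.

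The start sites of 3 of these genes show how their sequences differ, and they are given because between day 3 and day 7 every rat of the later day stood higher for Postn and Aspn and lower for Plod2. Each line holds the 250 bases before the start site in RefSeq's GRCr8 rat assembly, 5′ to 3′ on the strand of the gene. In Plod2 (chr8:101964068-101964317, + strand) and Aspn (chr17:15310470-15310719, - strand) the capitals mark ACGTG on either strand, the core letters of the hypoxia response element. In Postn (chr2:140677811-140678060, + strand) they mark TATAAA, the core letters of the TATA box.
Plod2: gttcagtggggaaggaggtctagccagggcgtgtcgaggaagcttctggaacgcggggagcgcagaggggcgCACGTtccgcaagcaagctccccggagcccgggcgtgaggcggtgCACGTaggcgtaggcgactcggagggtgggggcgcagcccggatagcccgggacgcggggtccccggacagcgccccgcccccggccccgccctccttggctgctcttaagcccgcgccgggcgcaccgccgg
Aspn: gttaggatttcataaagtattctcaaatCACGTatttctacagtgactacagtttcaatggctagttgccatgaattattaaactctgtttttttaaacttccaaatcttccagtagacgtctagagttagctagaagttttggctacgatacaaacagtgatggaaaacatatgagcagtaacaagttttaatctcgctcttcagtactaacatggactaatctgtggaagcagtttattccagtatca
Postn: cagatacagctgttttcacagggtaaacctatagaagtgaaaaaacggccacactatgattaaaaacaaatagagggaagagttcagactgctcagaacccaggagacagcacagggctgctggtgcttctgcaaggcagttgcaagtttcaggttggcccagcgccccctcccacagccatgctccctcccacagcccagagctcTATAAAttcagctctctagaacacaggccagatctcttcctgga

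The promoter table held 9 of the 10 genes, all but Scx, each with 250 bases before and 50 bases after the start, and 5 motifs were searched on both strands. ACGTG was found in Plod2, Aspn and Fmod, 3 of the 9, and in 19.7% of all 27457 promoters. The E-box CANNTG, which scleraxis and many other factors can bind and which overlaps ACGTG where a site reads CACGTG, was found in Postn, Aspn, Tnc, Acta2, Fap and Pdgfra, 6 of the 9, and in 71.6% of all promoters. TATAAA was found in Postn and Tnc and in 14.3% of all promoters. CATTCC, the letters bound by TEAD factors, was found in Acta2 and in 13.9%, and the CArG box, a motif of smooth muscle genes, was found in 0 of the 9 and in 1.64%. A match is a description of the letters and not a site of binding, and a count of 0 does not show that a gene lacks the element.

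Total counts were alike across rats, with 14854648 to 18742491 counts per rat and a median of 17783047. Levels are given as CPM, counts brought to a common library size and scaled for library composition with the trimmed mean of M values (TMM), and they compare rats for 1 gene, not 1 gene with another. Hemoglobin alpha (Hba-a1) alone took 0.130% to 23.4% of the counts of a rat. The TMM factors ran from 0.496 to 1.35, so the depth effective for other genes differed more between rats than the totals. Genes of collagen-making cells were present in all rats, with Postn between 412 and 5762 CPM, Col3a1 between 1460.1 and 17447 CPM and Col1a1, which osteoblasts also express, between 5246 and 36681 CPM. None of these genes is expressed by ligament fibroblasts alone. The 8 osteoblast markers, Col1a1 among them, summed to between 5343 and 43568 CPM. Scx and Tnmd were low, with at least 12 and 8 counts in a rat and at most 28.0 and 118 CPM. Genes of skeletal muscle differed widely between days. Their 10 marker genes summed to between 21.6 and 477 CPM in the 7 rats of day 3, to between 2188 and 39588 CPM at day 7 and to between 247 and 29129 CPM at day 14. The sensory nerve- rats of day 7 were deposited in a table that held no other group, so for every comparison that uses them a difference between tables cannot be told apart from the day or the transection.

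Changes were tested with edgeR's quasi-likelihood test, each comparison on its own rats. The log2 fold change is given with its standard error (SE), and a gene passed the test when its p, adjusted over all genes by the method of Benjamini and Hochberg, was under 0.05.

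Between day 3 and day 7 several ligament genes rose and Plod2 fell. With the nerve intact Scx and Aspn rose and Plod2 fell, so that 3 of the 10 genes passed the test, against 6.67% of all 15017 genes tested. After transection Tnmd, Aspn, Fmod and Fap rose and Plod2 fell, so that 5 of the 10 passed, against 10.4% of 14578 genes. The ranges of the rats did not overlap between these days for 4 of the 10 genes with the nerve intact (25.4% of all genes) and for 6 of the 10 after transection (21.7% of all genes). The median log2 fold change of the 10 genes was 1.18 with the nerve intact and 1.16 after transection, beside 0.05 and -0.01 over all genes. In mixed tissue, more cells of a type and more RNA per cell cannot be told apart.

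**Figure D1:**
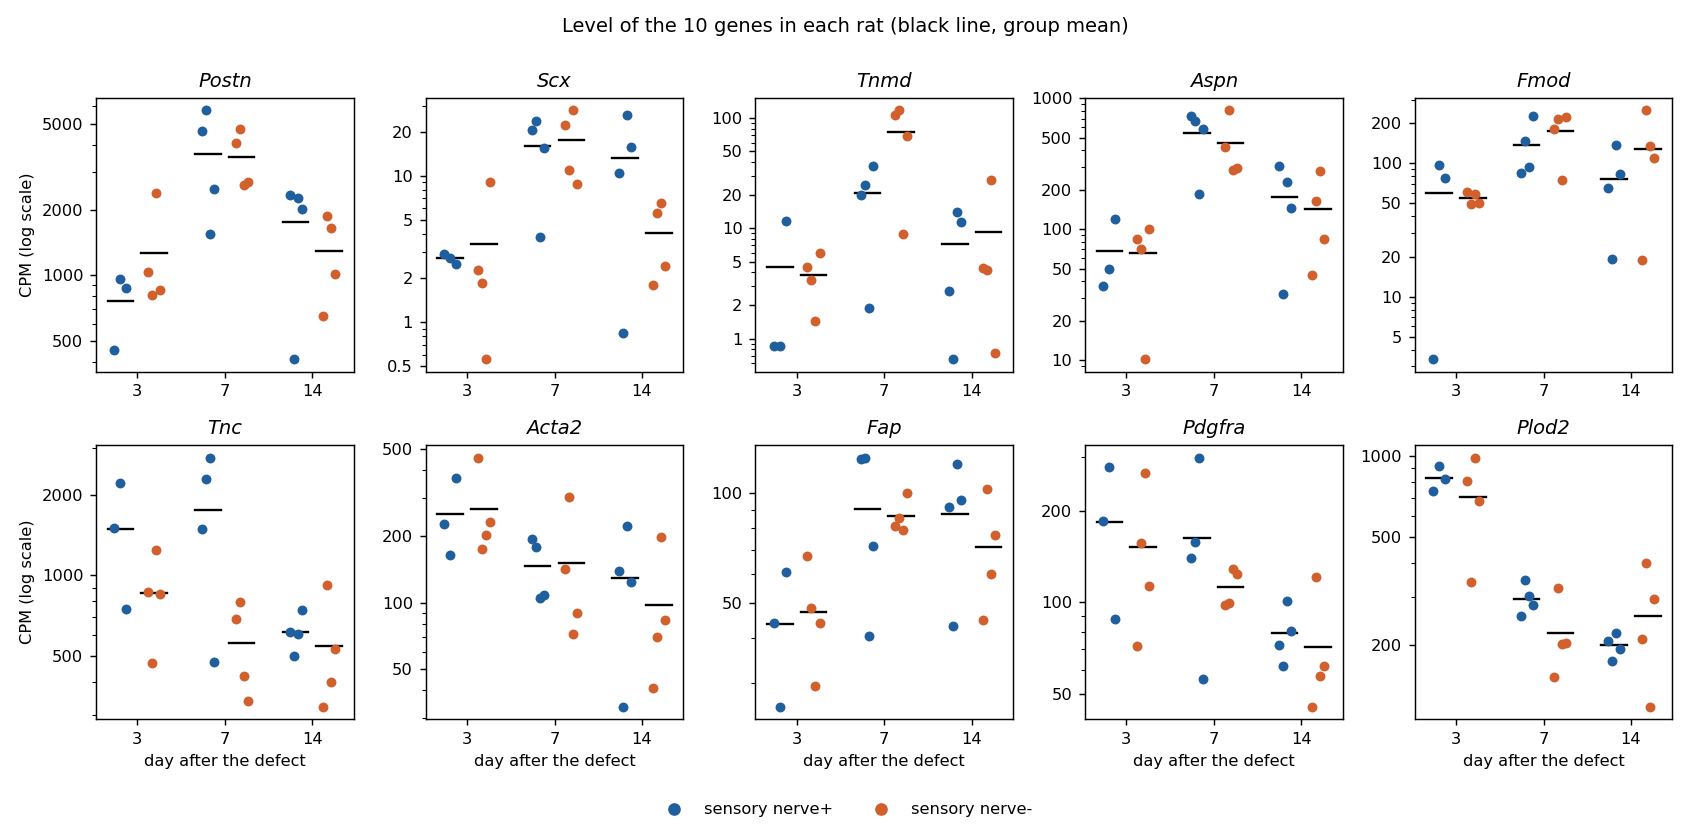
CPM of each of the 10 genes on a log axis by day after the defect, with 1 point per rat, sensory nerve+ rats in blue, sensory nerve- rats in orange and a black line at each group mean. Plod2 lies at 739.5 to 921 CPM with the nerve intact at day 3 and at 175 to 346 CPM at the later days, while the Postn, Scx, Tnmd and Aspn means are highest at day 7.

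Postn, a matricellular protein of the ligament, was highest at day 7. In the sensory nerve+ rats it stood at 452, 968 and 874 CPM at day 3, at 4624, 5762, 1545 and 2505 CPM at day 7 and at 2339, 412, 2261 and 2023 CPM at day 14. In the sensory nerve- rats it stood at 1034, 809, 2393 and 857 CPM at day 3, at 4075, 4717, 2612 and 2689 CPM at day 7 and at 649.6, 1878, 1654 and 1016 CPM at day 14. In both nerve states every rat of day 7 lay above every rat of day 3, and after transection every rat of day 14 lay below every rat of day 7. From day 3 to day 7 the log2 fold change was 2.28 (SE 0.55, adjusted p = 0.0554) with the nerve intact and 1.45 (SE 0.44, adjusted p = 0.0723) after transection, so neither passed. DESeq2, which called 4 and 7 of the 10 genes here beside 18.7% and 22.1% of all genes, called Postn in both comparisons, and edgeR called it with the nerve intact once sensory nerve+ day 7 rat 3 was left out and after transection once sensory nerve- day 3 rat 3 was left out.

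Tenascin C had another course. In the sensory nerve+ rats Tnc stood at 1506, 2207 and 751 CPM at day 3, at 1488, 2288, 2752 and 474 CPM at day 7 and at 612, 502, 605 and 743 CPM at day 14. After transection it stood at 869, 472, 1244 and 851 CPM at day 3, at 686, 794, 421 and 339.5 CPM at day 7 and at 323, 921, 401 and 531 CPM at day 14. Of the 4 sensory nerve+ rats of day 7, 3 stood above all sensory nerve+ rats of day 14, and the fourth, rat 4, stood below them. The log2 fold change from day 7 to day 14 was -1.50 (SE 0.50, adjusted p = 0.482) with the nerve intact, and from day 3 to day 14 it was -1.27 (SE 0.37, adjusted p = 0.0827), with every rat of day 14 below every rat of day 3. After transection the day 14 values overlapped those of both other days, and the log2 fold change from day 3 was -0.71 (SE 0.39, adjusted p = 0.214).

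Scx, the lineage factor, was near its lowest level in most rats of day 3. It stood at 2.94, 2.76 and 2.52 CPM in the sensory nerve+ rats of day 3, at 20.7, 23.6, 3.85 and 15.5 CPM at day 7 and at 10.4, 0.851, 25.9 and 15.8 CPM at day 14. After transection it stood at 2.26, 1.85, 0.559 and 9.10 CPM at day 3, at 22.3, 10.9, 28.0 and 8.74 CPM at day 7 and at 1.80, 5.58, 6.52 and 2.41 CPM at day 14. The 4 sensory nerve+ rats of day 7 lay above all those of day 3, and rat 3 of day 7 did so by the smallest margin. The rise to day 7 passed the test with the nerve intact (log2 fold change 2.57, SE 0.59, adjusted p = 0.0486). After transection the ranges overlapped through rat 4 of day 3. The difference of 2.35 on the log2 scale (SE 0.80, adjusted p = 0.0986) did not pass edgeR's test unless that rat was left out. DESeq2 called it with all rats (adjusted p = 0.0135). From day 7 to day 14 all sensory nerve- rats of day 14 lay below those of day 7, a change of -2.11 on the log2 scale (SE 0.53, adjusted p = 0.106), while with the nerve intact it was -0.23 (SE 0.86, adjusted p = 0.954).

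The Scx call with the nerve intact did not hold under most alternatives, although DESeq2 kept it (adjusted p = 0.000251). In edgeR the call was lost with RLE size factors, with scaling by the library total and without the filter on low counts. Each of these left Aspn higher and Plod2 lower as the only genes of the list past the threshold. A fit of all 23 rats also lost it (adjusted p = 0.0972) and called Postn (adjusted p = 0.0346), Aspn and Plod2. Leaving out any 1 of the 6 rats other than sensory nerve+ day 7 rat 3 also left Plod2 alone past the threshold, and leaving out that rat gave 4 genes, Postn, Scx, Aspn and Plod2.

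Tnmd, the marker of mature ligament cells, had the widest spread, 182-fold between the lowest and the highest rat. With the nerve intact it stood at 0.850, 0.857 and 11.7 CPM at day 3, at 19.9, 24.7, 1.88 and 36.7 CPM at day 7 and at 2.68, 0.651, 14.0 and 11.5 CPM at day 14. After transection it stood at 4.47, 3.37, 1.45 and 5.94 CPM at day 3, at 106, 118, 8.94 and 68.6 CPM at day 7 and at 4.42, 4.17, 27.6 and 0.740 CPM at day 14. In the sensory nerve- groups the 4 rats of day 7 stood above all rats of day 3, and rat 3 of day 7 was far below the other 3. Tnmd rose there by 4.31 on the log2 scale (SE 0.80, adjusted p = 0.0195), a 19.8-fold change, and the call was lost without day 3 rat 1, day 3 rat 2 or day 7 rat 3. In the sensory nerve+ rats the ranges overlapped and the log2 fold change was 2.25 (SE 1.24, adjusted p = 0.316). The interaction of transection and day, a test of whether the course over the days differed between the nerve states, gave Tnmd an adjusted p of 0.998. The fall from day 7 to day 14 after transection, -3.04 on the log2 scale (SE 1.09), did not pass (adjusted p = 0.157).

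Asporin and fibromodulin belong to the small leucine-rich proteoglycans. Aspn stood at 36.9, 49.7 and 119 CPM in the sensory nerve+ rats of day 3, at 731, 673, 186 and 582 CPM at day 7 and at 304, 32.1, 229.5 and 145 CPM at day 14. After transection it stood at 83.6, 70.2, 10.2 and 100.5 CPM at day 3, at 428, 812, 281 and 295 CPM at day 7 and at 45.0, 163, 277 and 84.3 CPM at day 14. In both nerve states all rats of day 7 lay above all rats of day 3. Aspn rose by 3.03 (SE 0.62, adjusted p = 0.0350) with the nerve intact and by 2.78 (SE 0.67, adjusted p = 0.0400) after transection, on the log2 scale, which is 8.15-fold and 6.88-fold. From day 7 to day 14 Aspn changed by -1.58 on the log2 scale (SE 0.66, adjusted p = 0.519) with the nerve intact and -1.67 (SE 0.58, adjusted p = 0.152) after transection, where the ranges did not overlap. The rise after transection held with only 1 of the 8 single rats left out, sensory nerve- day 3 rat 3.

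Fmod stood at 3.40, 97.2 and 78.1 CPM in the sensory nerve+ rats of day 3, at 85.2, 148, 94.4 and 224 CPM at day 7 and at 64.9, 19, 138 and 83.6 CPM at day 14. After transection it stood at 61.0, 49.7, 58.7 and 50.8 CPM at day 3, at 181, 216, 74.6 and 222 CPM at day 7 and at 18.9, 250.1, 136 and 109 CPM at day 14. The sensory nerve- rats of day 3 lay close together, and all 4 rats of day 7 stood above them. Fmod rose there by 1.64 (SE 0.32, adjusted p = 0.0213) on the log2 scale, and the call was lost without day 3 rat 1, 2 or 4 or day 7 rat 4 and in a fit of all 23 rats (adjusted p = 0.147). Sensory nerve+ day 3 rat 1 was far below the other rats of its group, the ranges of day 3 and day 7 overlapped and the log2 fold change was 1.26 (SE 0.93, adjusted p = 0.453).

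Plod2 was the 1 gene of the 10 that passed the test in both nerve states at both later days. In the sensory nerve+ rats it stood at 739.5, 921 and 825 CPM at day 3, at 254, 346, 302 and 279.8 CPM at day 7 and at 207, 175, 221 and 193 CPM at day 14. In the sensory nerve- rats it stood at 809.8, 343, 987 and 679 CPM at day 3, at 152, 325, 201 and 203 CPM at day 7 and at 209.7, 400.1, 118 and 295 CPM at day 14. With the nerve intact the 3 days did not overlap at all, falling from day 3 to day 7 to day 14. After transection all rats of day 7 lay below those of day 3, of which rat 2 was the lowest, and the ranges of day 14 overlapped those of both other days.

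Plod2 fell from day 3 to day 7 by 1.44 on the log2 scale (SE 0.17, adjusted p = 0.00643) with the nerve intact and by 1.69 (SE 0.36, adjusted p = 0.0280) after transection. Against the same rats of day 3, it fell to day 14 by 2.05 (SE 0.17, adjusted p = 0.0165) with the nerve intact and by 1.52 (SE 0.43, adjusted p = 0.0377) after transection. It was the only 1 of the 10 genes past the threshold at day 14 against day 3 in each nerve state, where 5.78% and 23.5% of all genes passed. DESeq2 called 4 of the 10 there with the nerve intact, Scx, Tnc, Pdgfra and Plod2, and 2 after transection, Acta2 and Plod2, beside 22.4% and 33.6% of all genes. From day 7 to day 14 the log2 fold change was -0.56 (SE 0.15, adjusted p = 0.384) with the nerve intact and 0.22 (SE 0.38, adjusted p = 0.762) after transection. With the nerve intact the fall to day 7 passed with each of the 7 rats left out in turn. The fall to day 14 was lost without sensory nerve+ day 3 rat 3 or without any of rats 1, 3 and 4 of day 14. After transection the fall to day 7 passed only without day 3 rat 2 or day 7 rat 2, 2 of the 8 rats, and the fall to day 14 only without day 3 rat 2 or day 14 rat 2. Other genes of the list passed at day 14 against day 3 once 1 rat of day 14 was left out, Postn, Scx and Fap without sensory nerve+ rat 2, Fmod without sensory nerve- rat 1, Tnc and Pdgfra without sensory nerve- rat 2 and Acta2 without sensory nerve- rat 3.

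**Figure D2:**
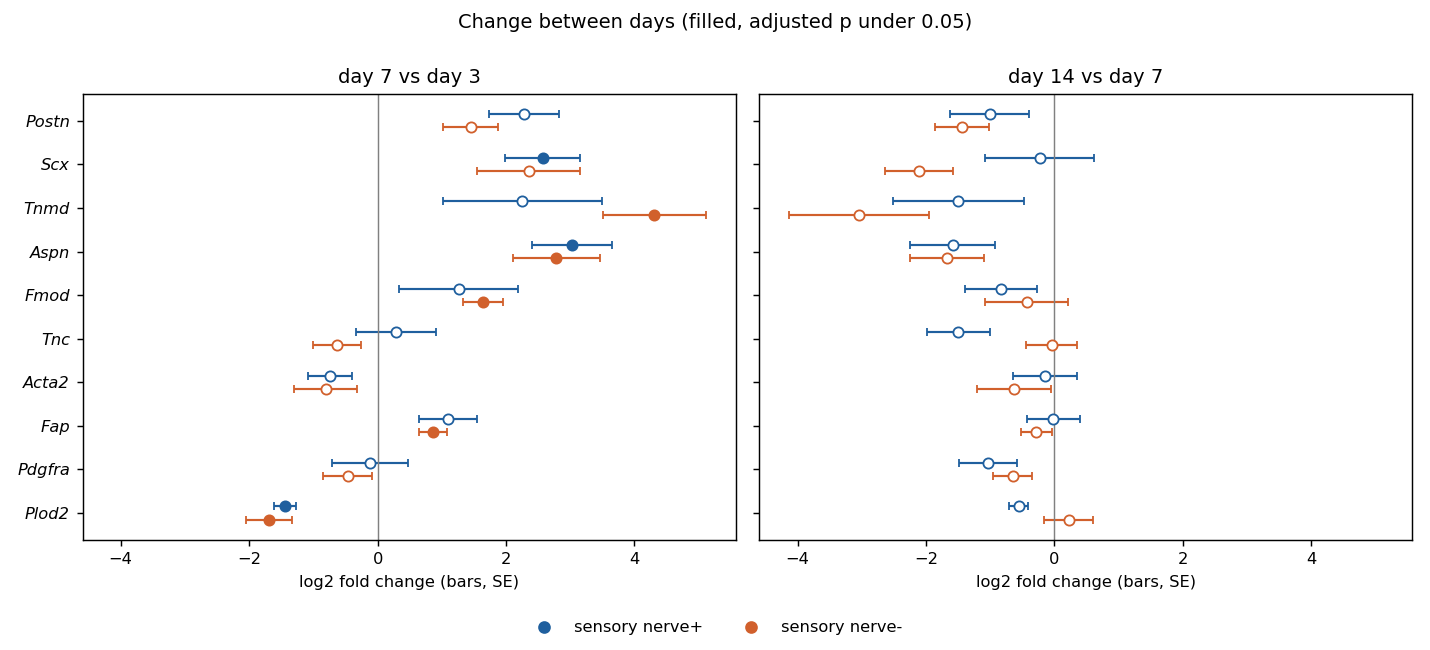
Log2 fold change of each gene between consecutive days, day 7 against day 3 on the left and day 14 against day 7 on the right, with bars for the SE, blue for sensory nerve+ and orange for sensory nerve-, filled where the adjusted p was under 0.05. The filled points are all on the left, for Scx, Aspn and Plod2 in blue and for Tnmd, Aspn, Fmod, Fap and Plod2 in orange.

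Among the genes that mark fibroblast states, Fap was low at day 3. It stood at 43.8, 25.8 and 60.9 CPM in the sensory nerve+ rats of day 3, at 125, 125, 40.4 and 71.8 CPM at day 7 and at 91.5, 43.2, 121 and 95.6 CPM at day 14. After transection it stood at 67.3, 48.4, 29.4 and 43.9 CPM at day 3, at 81.1, 85.5, 79.2 and 100.3 CPM at day 7 and at 44.8, 103, 60.1 and 76.5 CPM at day 14. The 4 sensory nerve- rats of day 7 lay close together and above all those of day 3, while with the nerve intact rat 3 of day 7 fell among the rats of day 3. Fap rose after transection by 0.87 (SE 0.22, adjusted p = 0.0454) on the log2 scale, a call that was lost with each of the 8 rats left out in turn and in a fit of all 23 rats (adjusted p = 0.119), and its log2 fold change with the nerve intact was 1.10 (SE 0.46, adjusted p = 0.193).

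Pdgfra did not pass edgeR's test in any comparison of all rats, and it passed without sensory nerve- day 14 rat 2, lower at day 14 than at day 3 and than at day 7. Its group means fell in order from 184 CPM at day 3 to 163 and 78.9 CPM at day 7 and day 14 with the nerve intact, and from 152 to 112 and 71.3 CPM after transection, with single rats between 45.3 and 299 CPM. The ranges of day 3 and day 14 overlapped in both nerve states, and the log2 fold change between them was -1.21 (SE 0.38, adjusted p = 0.0959) with the nerve intact and -1.15 (SE 0.45, adjusted p = 0.101) after transection.

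Acta2 also did not pass edgeR's test in any comparison of all rats with TMM scaling. Its group means were 253, 146 and 130.1 CPM at day 3, day 7 and day 14 with the nerve intact and 266, 152 and 98.1 CPM after transection, with single rats between 33.7 and 455 CPM. The log2 fold change from day 3 to day 14 was -0.94 (SE 0.57, adjusted p = 0.330) with the nerve intact and -1.48 (SE 0.51, adjusted p = 0.0688) after transection. This last change passed, and that of Plod2 did not, with scaling by the library total and with TMM scaling once sensory nerve- day 14 rat 3 was left out. Acta2 is close in sequence to the other muscle actins, and the deposited counts share out reads that fit several genes. How far this affects its level was not tested. Acta1, the skeletal muscle actin, stood at no more than 272 CPM in the rats of day 3 and at 482 to 13495 CPM in the rats of day 7.

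From day 7 to day 14, 0 of the 10 genes passed with the nerve intact, where 0.0202% of 14868 genes passed, and 0 of the 10 passed after transection, where 0.0138% of 14447 genes passed. At an unadjusted p under 0.05 there were 3 and 4 of the 10, beside 9.42% and 23.5% of all genes. DESeq2 called 1 of the 10 with the nerve intact, Plod2, and 4 after transection, Postn, Scx, Tnmd and Aspn, beside 2.19% and 13.8% of all genes. All 10 log2 fold changes were below 0 with the nerve intact and 9 of 10 after transection, with medians of -0.92 and -0.64 beside -0.02 and -0.01 over all genes. The rats of day 7 enter both this comparison and that with day 3, so a high value in them raises one and lowers the other. Plod2 alone with the nerve intact, 1 gene, and after transection 3 genes, Postn, Scx and Aspn, were lower without overlap, beside 3.43% and 6.49% of all genes.

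In the order of the group means, the 2 day 7 groups stood first and second for Postn, Scx, Tnmd, Aspn and Fmod, sensory nerve+ first for Postn and Aspn and sensory nerve- first for Scx, Tnmd and Fmod. Fap and Tnc were highest in the sensory nerve+ group of day 7, and Acta2, Pdgfra and Plod2 in a group of day 3. Neighbours in this order overlapped in 49 of 50 cases. The exception was Postn, for which the lowest sensory nerve- rat of day 7, at 2612 CPM, stood above the highest sensory nerve+ rat of day 14, at 2339 CPM.

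Transection was compared at each day and over all days with day as a term. In each of these 4 comparisons and in the interaction with day, edgeR called 0 of the 10 genes and 0% of all genes, and DESeq2 called 0 of the 10. DESeq2 called 0% of all genes at day 3, 0.0068% at day 7, 0.65% at day 14, 0.00631% over all days and 0% in the interaction. At an unadjusted p under 0.05 there were 0 of the 10 at day 3, 1 at day 7, 0 at day 14, 1 over all days and 0 in the interaction, beside 0.829%, 1.46%, 9.33%, 5.11% and 3% of all genes. The ranges of sensory nerve+ and sensory nerve- rats overlapped for all 10 genes at each day, while 1.62%, 0.761% and 3.37% of all genes did not overlap at day 3, day 7 and day 14. Median log2 fold changes of the 10 genes were -0.11 at day 3, -0.05 at day 7 and -0.25 at day 14. These tests do not show that the nerve states were alike, since the SE of a single log2 fold change ran up to 1.16 at day 14.

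The gene at an unadjusted p under 0.05 was Tnc in both cases. At day 7 the sensory nerve+ mean was 1751 ± 999 CPM and the sensory nerve- mean 560.3 ± 215 CPM (SD, n = 4 each). The log2 fold change was -1.66 (SE 0.54, adjusted p = 0.9997) at day 7 and -0.87 (SE 0.30, adjusted p = 0.860) over all days, and at day 3 and day 14 it was -0.82 (SE 0.44) and -0.19 (SE 0.34). Of the sensory nerve+ rats of day 7, 3 stood above all sensory nerve- rats and rat 4, at 474 CPM, stood among them. Tnmd had the highest fold change at day 7, 1.86 on the log2 scale (SE 0.90, adjusted p = 0.9997), and Scx the lowest at day 14, -1.71 (SE 0.87, adjusted p = 0.519). At day 14 sensory nerve+ rat 2 had less Scx than any sensory nerve- rat, while the other 3 had more than all of them.

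**Figure D3:**
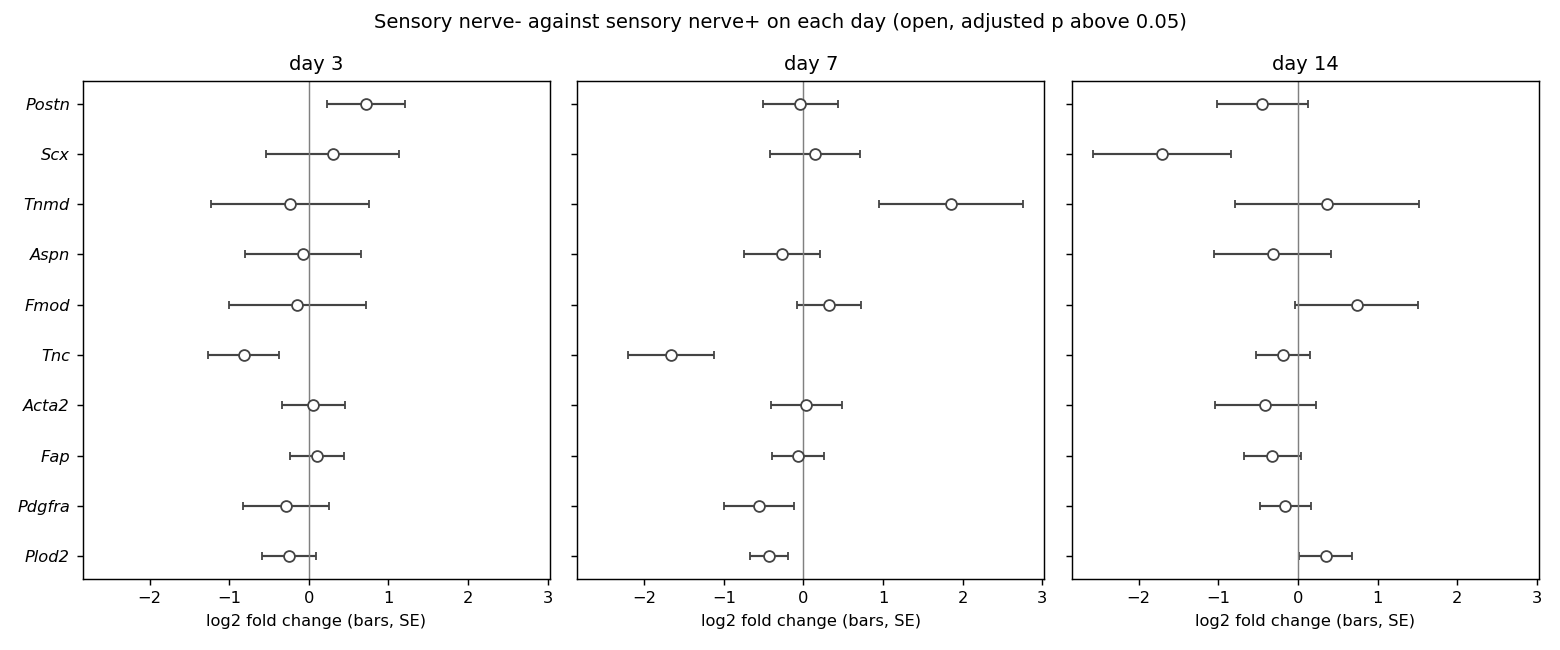
Log2 fold change of sensory nerve- against sensory nerve+ rats for each gene at day 3, day 7 and day 14, with bars for the SE and open points because the adjusted p was above 0.05 for all 10 genes. Tnc lies at -1.66 and Tnmd at 1.86 at day 7, and Scx lies at -1.71 at day 14.

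The genes moved with each other to different degrees. Likeness was measured over the 23 rats as the root mean square difference of standardised log2 CPM, in which 0 means the same pattern and a gene of the list differed from any other gene by a median of 1.42 standard deviations. Over the 45 pairs within the list the median was 1.27, with a range of 0.527 to 1.73. The closest pair was Scx and Aspn, at 0.527, followed by Tnmd and Aspn at 0.651, and Tnc was closest to Pdgfra, at 0.710. Since rats of the same group share a day, these figures hold differences between days as well as between rats.

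**Figure D4:**
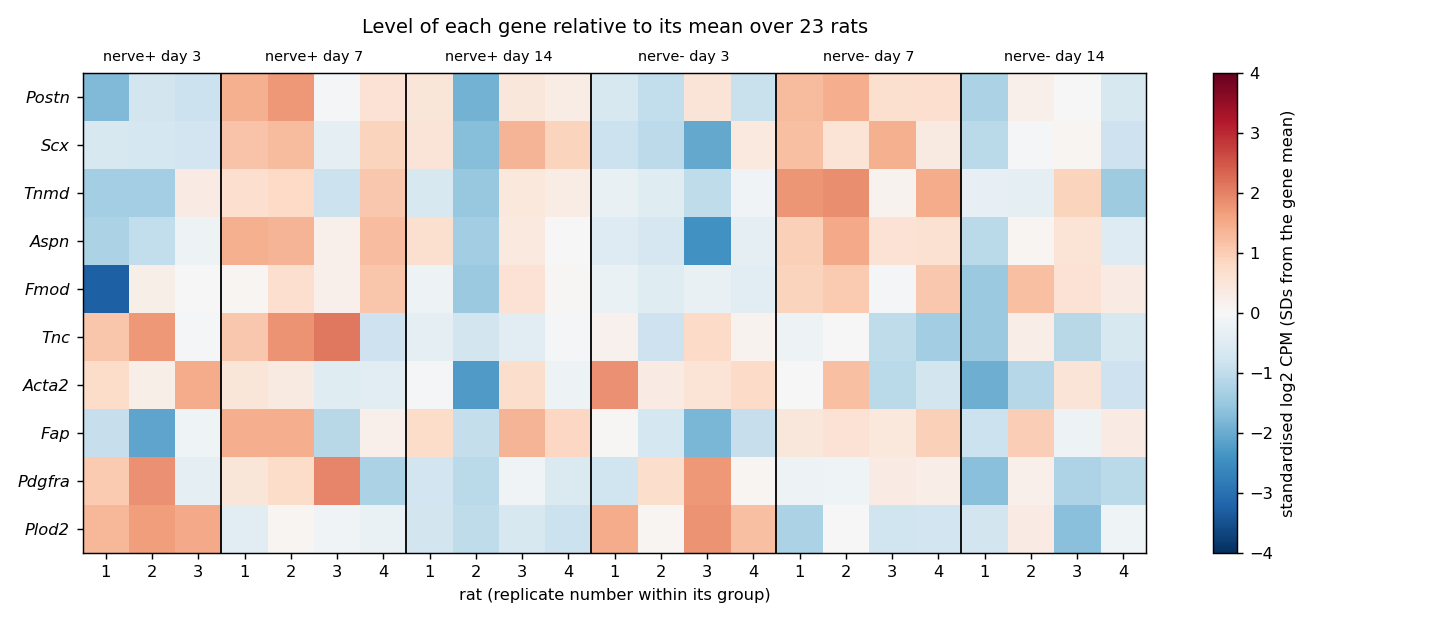
Standardised log2 CPM of the 10 genes, as standard deviations from the mean of each gene over 23 rats, with rats grouped by nerve state and day and numbered within their group. Sensory nerve+ day 14 rat 2 is the lowest of its group for all 10 genes and sensory nerve- day 14 rat 1 for 8 of the 10.

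Outside the list, the genes with the pattern closest to Postn were Mmp2, a gelatinase of fibroblasts, at 0.390, Fibin at 0.422 and Thbs3 at 0.441. Those closest to Aspn were C1qtnf3, Nrk and Adamtsl4, at 0.376 to 0.402, and those closest to Tnmd were Kera, the proteoglycan keratocan, Cilp2 and Adam33, at 0.536 to 0.592. Among the genes closest to Scx were Fgf13 at 0.329 and Chrnd, a subunit of the muscle acetylcholine receptor, at 0.343. Acta2 was closest to Tagln, the smooth muscle protein transgelin, at 0.318. Plod2 was closest to Prrc1, Sec22b and Surf4, genes of the early secretory pathway, at 0.312 to 0.346. The nearest genes lay further off for Fap (Deptor, Hsf4 and Plcb4, 0.545 to 0.556), Fmod (Cpq, Zfp775 and Megf6, 0.597 to 0.638) and Tnc (Smo, Fam168a and LOC102555033, 0.585 to 0.619), and for Pdgfra they were Kif26b, Golm2 and Slc44a1, at 0.459 to 0.472.

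Skeletal muscle markers moved with several of these genes. All 10 markers had counts in every rat of day 7 and day 14, and 9 of the 10 in every sensory nerve+ rat of day 3. By the same measure their summed level lay 0.537 from Scx, 0.590 from Aspn, 0.763 from Postn, 0.767 from Fap, 0.871 from Tnmd and 0.994 from Fmod, and 1.86 from Plod2. With the nerve intact the sums were 77.1, 30.9 and 71.5 CPM at day 3, 12534, 22425, 6234 and 22297 CPM at day 7 and 29129, 271, 15153 and 19675 CPM at day 14. In the sensory nerve- rats they were 23, 38.7, 21.6 and 477 CPM at day 3, 39588, 4379.7, 7343 and 2188 CPM at day 7 and 247, 1426, 8046 and 325 CPM at day 14. The rats lowest in muscle markers in 4 of the groups, sensory nerve+ day 7 rat 3 and day 14 rat 2 and sensory nerve- day 3 rat 3 and day 14 rat 1, were also lowest in Scx and Aspn. In the other 2 groups this did not hold for both genes. In the sensory nerve- group of day 7 rat 4 had the least markers, at 2188 CPM, and also the least Scx. Aspn was lowest there in rat 3 and highest in rat 2, which had 4379.7 CPM of markers. Among the sensory nerve+ rats at day 3 the markers were lowest in rat 2, Scx in rat 3 and Aspn in rat 1. The part of muscle tissue in the rise of the ligament genes was not tested.

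**Figure D5:**
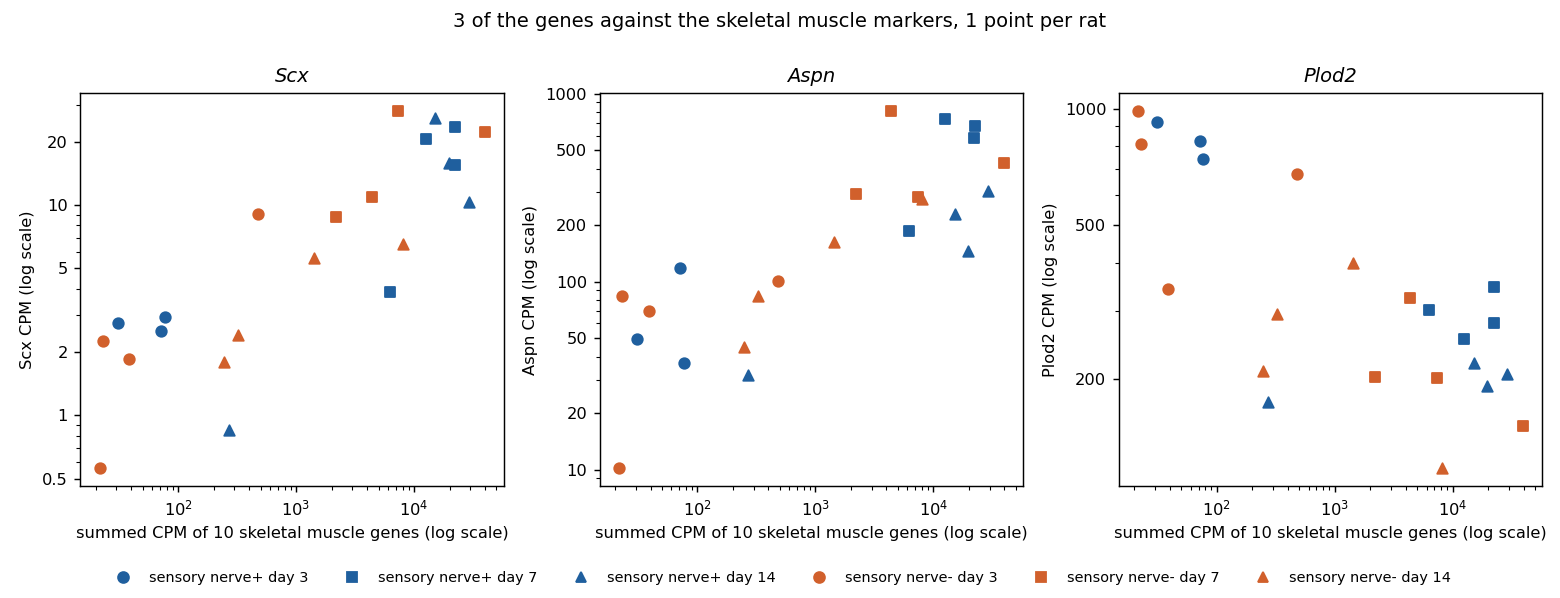
CPM of Scx, Aspn and Plod2 on the vertical log axis against the summed CPM of 10 skeletal muscle marker genes on the horizontal log axis, with 1 point per rat, blue for sensory nerve+, orange for sensory nerve- and a shape for each day. Scx runs from 0.559 CPM at a sum of 21.6 CPM to 28.0 CPM at a sum of 7343 CPM. The circles of day 3 lie at sums of 21.6 to 477 CPM. Sensory nerve+ day 14 rat 2, at 271 CPM, and sensory nerve- day 14 rats 1 and 4, at 247 and 325 CPM, fall within that range.

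Of the marker lists, those of tooth and epithelium lay closest to Tnc, Pdgfra and Plod2, and least closely to Tnc. The sum of 6 epithelial markers lay 0.859 from Plod2, 0.950 from Pdgfra and 1.07 from Tnc, and that of 5 tooth markers lay 0.946, 0.949 and 1.14 from them. Cartilage and osteoblast markers lay 1.13 and 1.15 from Plod2, and cartilage markers lay 1.27 from Tnc. The epithelial sum ranged from 3.40 to 926 CPM at day 3 with the nerve intact and from 37.2 to 549 CPM at day 3 after transection, and it was at most 18.4 CPM in every rat of day 7 and day 14 except sensory nerve+ day 7 rat 3, at 400.2 CPM. That rat had the most Tnc and Pdgfra of its group and the least Postn, Scx, Tnmd, Aspn, Acta2 and Fap. Sensory nerve+ day 3 rat 1, with 3.40 CPM of epithelial and 4.64 CPM of tooth markers, had 739.5 CPM of Plod2. Pericyte and smooth muscle markers lay 0.783 from Postn, 0.889 from Fmod, 0.960 from Aspn and 1.09 from Acta2. Endothelial markers lay 0.968 from Aspn, 0.969 from Postn, 0.970 from Fmod and 0.987 from Fap, and osteoclast markers lay 0.944 from Fap. The 6 endothelial markers summed with the nerve intact to between 290.5 and 487 CPM at day 3 and to between 522 and 756 CPM at day 7, without overlap, and after transection their sums overlapped between these days. The part of any of these tissues was not tested.

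Other genes of the same families were counted from lists. Between day 3 and day 7, 4.88% of all genes rose and 1.79% fell with the nerve intact, and 3.68% rose and 6.77% fell after transection. Between day 3 and day 14, 2.69% rose and 3.09% fell with the nerve intact, and 8.88% rose and 14.6% fell after transection. Of 10 further proteoglycans of the matrix, 4 rose and 0 fell from day 3 to day 7 with the nerve intact, among them Kera by 6.09 (SE 1.08, adjusted p = 0.0235), Ogn (osteoglycin) by 2.38 (SE 0.44, adjusted p = 0.0269) and Ecm2 by 2.21 (SE 0.45, adjusted p = 0.0341) on the log2 scale. Kera was barely measured at day 3, with a mean of 0.138 CPM against 9.80 CPM at day 7, so the size of its rise is uncertain. After transection 4 rose and 1 fell, and Ecm2, Podn (podocan) and Ogn had the smallest p. Vcan (versican), a large proteoglycan of provisional matrix, fell to day 14 against day 3 in both nerve states, with changes of -2.11 (SE 0.41) and -1.88 (SE 0.43) and adjusted p of 0.0418 and 0.0186. Ecm2 was also higher at day 14 than at day 3 after transection, by 1.59 (SE 0.42, adjusted p = 0.0304), so that 0 rose and 1 fell with the nerve intact and 1 rose and 1 fell after transection. Their median log2 fold change from day 3 to day 7 was 1.23 with the nerve intact and 0.73 after transection.

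Of 19 measured genes of ligament and tendon matrix and its factors, 3 rose and 0 fell from day 3 to day 7 in each nerve state. Eln (elastin) rose by 3.02 (SE 0.28, adjusted p = 0.00302) with the nerve intact and by 2.31 (SE 0.39, adjusted p = 0.0160) after transection, and Cilp, a matrix protein of cartilage and tendon, by 5.45 (SE 0.86) and 4.88 (SE 0.77), with adjusted p of 0.0168 and 0.0144. The third was Comp, by 4.21 (SE 0.83, adjusted p = 0.0310), with the nerve intact and Col14a1, by 1.86 (SE 0.47, adjusted p = 0.0434), after transection. Comp was also barely measured at day 3 with the nerve intact, with a mean of 0.589 CPM against 10.8 CPM at day 7. At day 14 against day 3, 3 had risen and 2 had fallen with the nerve intact, and 0 had risen and 3 had fallen after transection, Tgfbi, Egr2 and Fn1 (fibronectin).

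Several other enzymes that modify collagen also fell. Of 17 measured, 0 rose and 2 fell from day 3 to day 7 with the nerve intact, P4ha1 and P4ha2, subunits of prolyl hydroxylase, and 1 rose (Loxl1) and the same 2 fell after transection. At day 14 against day 3, 0 rose and 8 fell with the nerve intact and 1 rose and 8 fell after transection. With the nerve intact the smallest p belonged to P3h1, with -1.34 on the log2 scale (SE 0.16, adjusted p = 0.0258), Plod3 with -1.07 (SE 0.15, adjusted p = 0.0272) and P4ha2 with -2.53 (SE 0.37, adjusted p = 0.0272). After transection it belonged to Lox, which starts collagen crosslinking and fell by 1.40 (SE 0.27, adjusted p = 0.0117), P4hb and Plod1. Of 9 measured genes that respond to hypoxia, 1 fell from day 3 to day 7 in each nerve state, Slc2a1 (a glucose transporter) with -2.33 (SE 0.34, adjusted p = 0.0120) with the nerve intact and Pgk1 (a glycolytic enzyme) with -1.17 (SE 0.26, adjusted p = 0.0299) after transection. At day 14 against day 3, 1 of the 9 had fallen with the nerve intact and 5 of the 9 after transection, and 0 had risen, with medians of -1.31 and -1.49.

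Few of the genes that accompany Acta2, Fap and Pdgfra passed. Of 10 myofibroblast and smooth muscle genes 1 rose from day 3 to day 7 with the nerve intact, Tpm2, which skeletal muscle also expresses, and 1 rose to day 14 after transection, Mylk. Of 15 genes of TGF-beta signalling and fibroblast activation, 4 fell from day 3 to day 14 after transection. Of the relatives of Fap, Dpp4 rose and Prep fell from day 3 to day 14 in both nerve states. Of the other 5 genes of the PDGF family edgeR called 0 in every comparison, and DESeq2 called 1 of them, in the sensory nerve+ rats from day 7 to day 14. In none of these lists did edgeR call a gene for transection.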

How the data were processed

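RNA-seq of 23 rats was used, and the macrophage cultures of the series were not analysed here. Per the study's methods, reads from the DNBSEQ platform were mapped with HISAT to the rat assembly mRatBN7.2, and the submitters' processing notes also name Bowtie2. The authors deposited an expected count per gene, an estimate that shares out reads mapping to several genes. Whole values, within 1e-06, made up 38.5%. Whether the tissue of 1 rat was pooled is not given in the sources used here, so p-values measure the spread between these samples.

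Expected counts were rounded, filtered with filterByExpr, normalized by TMM and tested with edgeR 4.0.16 (R 4.3.3), with an SE derived from the F statistic. CPM were scaled over all 23 rats, and the likeness of patterns used log2 CPM with a prior count of 2 (1 for summed markers). A fit without 14 muscle and hemoglobin marker genes, added after the data had been seen, tests their effect on scaling only. Scripts were tested on simulated data. Alternatives tried were scaling by RLE size factors or by the library total, DESeq2 1.42.0, no filter, a replicate block, all 23 rats in 1 fit and each rat left out. Genes were named by a rule: all 10 of the list, for each other list the 3 genes with the smallest p among those past the threshold, and the 3 most alike genes. Some results under this rule are not reported here. The genes, lists and tests were chosen with earlier results of these data known.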

Additional observations from a re-analysis of the deposited data

Results flagged for a closer look

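In groups of 4 rats, the highest or lowest rat was checked for its distance to the nearest other rat, as a share of the whole range of the group on the log2 scale. Of 50 such groups 3 stood out, and chance alone gives about 1 in 20. Postn in sensory nerve+ day 14 rat 2 was at 412 CPM against 2023 to 2339 CPM in the others, a share of 0.916. Aspn in sensory nerve+ day 7 rat 3 was at 186 CPM against 582 to 731 CPM, a share of 0.833. Aspn in sensory nerve- day 3 rat 3 was at 10.2 CPM against 70.2 to 100.5 CPM, a share of 0.843. Each of these rats also had the lowest summed level of skeletal muscle markers of its group, at 271, 6234 and 21.6 CPM.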

How the results depend on the processing

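With the replicate number as a block, 0 of the 10 genes passed between any days, against 3, 1, 5 and 1 without it for day 7 and day 14 against day 3 in sensory nerve+ and then in sensory nerve- rats. The numbers were not taken as pairs of rats, since no comparison had a correlation over 0.1 in every pair of same-numbered rats (mean 0.0119 over 33 pairs). The highest mean was for transection at day 7, 0.178 over 4 pairs beside -0.0622 for the other pairs. Whether same-numbered rats shared a factor was not tested further. This replicate block is therefore no evidence on the size of a change. DESeq2 gave 4 of 10 for sensory nerve+ day 14 against day 3, 1 for its day 14 against day 7, 4 for sensory nerve- day 14 against day 7 and 2 for its day 14 against day 3. A fit of all 23 rats gave 3 in place of 5 for sensory nerve- day 7 against day 3, without Fmod and Fap, and with the nerve intact it called Postn in place of Scx. With 1 rat left out the number of the 10 genes past the threshold ranged from 1 to 4 for sensory nerve+ day 7 against day 3, from 0 to 4 for its day 14 against day 3, from 0 to 4 for sensory nerve- day 7 against day 3, from 0 to 1 for its day 14 against day 7 and from 0 to 3 for its day 14 against day 3. It was 0 in each such fit for sensory nerve+ day 14 against day 7 and for transection. The cause of these differences was not tested. Over all genes, the 1002, 3, 871, 1523 and 2 calls of the first 5 comparisons of days (day 7 against 3, 14 against 7 and 14 against 3 in sensory nerve+ rats, then day 7 against 3 and 14 against 7 in sensory nerve- rats) became 2807, 325, 3376, 3218 and 1991 with DESeq2. With the replicate block they became 122, 0, 0, 2 and 0. The 3393 of sensory nerve- day 14 against day 3 became 4851 with DESeq2, 2347 with the replicate block and 1184 with the library total. That scaling moved the median of all genes in comparisons with sensory nerve- day 14, to -0.42 against day 3 and -0.40 against day 7. No change of a gene of the list that had passed the test turned its direction under any alternative. Among the 10 genes of the list, Scx at 12 and Tnmd at 8 counts in their lowest rats are the values that depth limits most.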
